A study of Mus musculus with 24 samples.

Results

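The fragments described here come from the 5′ ends of valine transfer RNAs (tRNAs) in mouse liver. They were chosen by the start of their name in the table of transfer RNA fragments (tRFs). Names of tRFs are licence plates, codes that spell the length and the sequence. Members start with the code 79MP9P, the 5′ end of tRNAs with the anticodons AAC and CAC (ValAAC and ValCAC), or with R9JP9P, the 5′ end of the tRNA with the anticodon TAC (ValTAC), and are shorter than 30 nucleotides (nt). The rule found 31 of 8456 tRFs, 18 with the code 79MP9P and 13 with R9JP9P. They held 6032 of 833071 tRF counts, which is 0.724%. Of the members, 15 had under 10 counts in all, 8 had a count in each of the 24 libraries and 7 in only 1.

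Small RNA was sequenced from the livers of C57Bl/6J mice in 3 groups of 8 libraries. AM132 mice were made obese on a high fat diet for 11 weeks and received 3.3 mg/kg of an antisense oligonucleotide of locked nucleic acid (LNA) that targets miR-132, intravenously on 3 consecutive days, 7 days before the livers were taken. AM608 mice had the same diet and schedule with an LNA oligonucleotide that targets miR-608, a miRNA of primates used as the control. RCD mice were lean, ate regular chow, also for 11 weeks, and were not injected. AM132 against AM608 therefore sets one oligonucleotide against another in obese liver, while diet and injection change together in AM608 against RCD and in AM132 against RCD, where they cannot be told apart. The labels number the libraries but do not say how animals were housed or processed in batches, so p-values measure the spread between these libraries.

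A tRNA carries an amino acid to the ribosome and folds into an acceptor stem and several arms. Cuts in the loop of its D arm leave short 5′ fragments, and cuts in the anticodon loop leave longer 5′ pieces. Some 5′ fragments bind ribosomes or RNA-binding proteins, and in the archaeon Haloferax volcanii a 5′ fragment of a valine tRNA binds the small ribosomal subunit and lowers translation under stress. In bulk liver, fewer cells of a type and less of a fragment per cell cannot be told apart.

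The sequences below are the members on which the results turn, decoded from the deposited names and written 5′ to 3′ in DNA letters. Positions are counted from 1 at the 5′ end. Capitals mark, in code 79MP9P, positions 16, 20 and 23, by which its forms are grouped (longer members also differ further along, which is not marked), and in code R9JP9P the bases at 2, 7, 16 and 23, at which it differs from the leading 79MP9P fragment.
tRF-23-79MP9P9NDE: gtttccgtagtgtagTggtTatT
tRF-23-79MP9P9MDD: gtttccgtagtgtagTggtCatC
tRF-23-79MP9PMNDD: gtttccgtagtgtagCggtTatC
tRF-16-79MP9PD: gtttccgtagtgtagC
tRF-29-79MP9P9NH52Q: gtttccgtagtgtagTggtTatCacgttt
tRF-16-R9JP9PD: gGttccAtagtgtagC
tRF-18-R9JP9PD4: gGttccAtagtgtagCgg
tRF-19-R9JP9P1Z: gGttccAtagtgtagCggt
tRF-23-R9JP9PMNDD: gGttccAtagtgtagCggttatC

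The 79MP9P fragments fell into 4 forms by these positions. The form with T at all of the marked positions had 2 members and 2565 counts, nearly all of them in tRF-23-79MP9P9NDE. The form that differs from it by T20C had 9 members with 1766 counts, led by tRF-23-79MP9P9MDD, which also carries T23C. The form that differs by T16C had 6 members with 266 counts and includes tRF-16-79MP9PD and tRF-23-79MP9PMNDD. The fourth form, T at 16 and 20 with T23C, was the 29-nt tRF-29-79MP9P9NH52Q with 74 counts. Of the R9JP9P fragments, 12 with 1360 counts shared one sequence and differed in length, and 1 with a single count carried C16T. Against the leading 79MP9P fragment the R9JP9P sequence differs by T2G, G7A, T16C and T23C.

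RefSeq lists 22 nuclear valine tRNA genes on GRCm38.p6, 8 with the anticodon AAC, 11 with CAC and 3 with TAC. Of the AAC and CAC genes, 10 lie on chromosome 13. The TAC genes are n-TVtac1 on chromosome 19 (12011931 to 12012003), n-TVtac2 on chromosome 19 (12012266 to 12012338) and n-TVtac3 on chromosome X (160766110 to 160766182). The fragments were not placed on single genes, because the gene list used here holds no tRNA sequences.

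The 2 codes differed in the lengths that held their counts. Code 79MP9P had 89.1% of its 4671 counts at 23 nt. Code R9JP9P had 52.4% of its 1361 counts at 16 nt, 16.5% at 18 nt, 14.1% at 19 nt and 10.7% at 23 nt. The 16-nt forms ended at the same position, and tRF-16-79MP9PD held 138 counts against 713 for tRF-16-R9JP9PD. Both have C at 16. The 138 counts were of 266 in the T16C form of code 79MP9P, and the 713 were of 1361 in code R9JP9P. The 79MP9P forms with T at 16 had no member shorter than 20 nt, so the codes were not shown to differ at 16 nt within the C16 sequence. The table listed none of the 7 shorter lengths of tRF-23-79MP9P9NDE, from 16 to 22 nt, but 11 of the 13 shorter lengths of the 29-nt R9JP9P fragment and 8 of the 13 of the 29-nt T20C form. How reads shared by several tRNAs were assigned is not given in the sources used here, so the lengths listed can reflect that assignment.

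**Figure D1:**
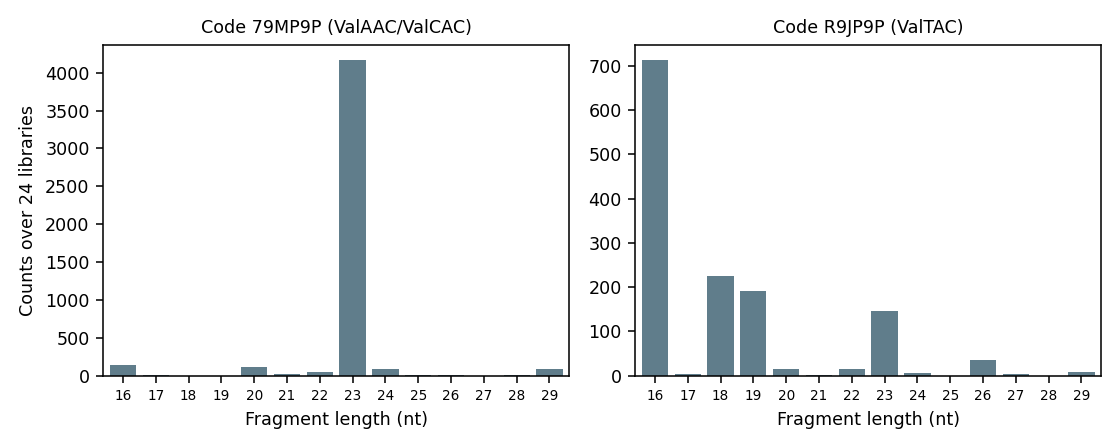
Counts summed over the 24 libraries (vertical axes, linear, with different scales) by fragment length in nt, for code 79MP9P on the left and code R9JP9P on the right. Code 79MP9P has 89.1% of its counts at 23 nt, and code R9JP9P has 52.4% at 16 nt.

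Depth was low. AM132 libraries held 25849 to 80578 tRF counts, AM608 libraries 29889 to 46567 and RCD libraries 20580 to 39077, beside 5689143 to 8734721 miRNA counts. Levels are given as CPM, the counts of a fragment scaled to the total of tested tRFs in its library after TMM correction for composition, and 3 counts corresponded to 66.8 to 157 CPM. AM132 library 8 stood apart: tested tRFs held 48.4% of its tRF counts, against 86.9 to 90.4% in the others, so its CPM values are raised relative to its shares of all tRF counts. RCD library 3 stood apart in the miRNA table. Its summed neural markers (miR-124-3p, miR-9-5p and miR-128-3p) reached 1506 CPM, against at most 673 CPM in any other library, its muscle markers 438 CPM against 144 CPM and its erythroid markers 2244 CPM against 1247 CPM. Of its neural markers, miR-128-3p was at 788 CPM, miR-9-5p at 707 CPM and miR-124-3p at 11.3 CPM. The RCD median of miR-124-3p was 1.16 CPM, and no AM132 library had a count of it. Other cell types did not go the same way. Its biliary markers (miR-200a-3p and miR-200b-3p) summed to 493 CPM, the lowest of the 24 libraries. Its leukocyte marker miR-223-3p was at 46.4 CPM, below the 74.7 CPM of the highest other library. Its 4 hepatocyte miRNAs summed to 350863 CPM, the lowest of the 24 libraries, and all 4 were detected in every library, with miR-122-5p at 157437 CPM or more. The targeted miR-132-3p had 0 counts in all 8 AM132 libraries, 92 to 341 in AM608 libraries and 69 to 339 in RCD libraries. Results are given with and without these 2 libraries where they move.

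The most counted member was tRF-23-79MP9P9NDE, a 23-nt fragment that ends in the D arm. Its lowest, median and highest levels were 1386, 3050 and 4106 CPM in AM132, 981, 2100 and 9567 CPM in AM608, and 1237, 2970 and 20916 CPM in RCD. The ranges overlapped, and the highest values came from single libraries: AM608 library 1 at 9567 CPM, with the next at 3199 CPM, and RCD library 3 at 20916 CPM, with the next at 6137 CPM. The log2 fold change was -0.03 (SE 0.494) in AM132 against AM608, -0.89 (SE 0.496) in AM608 against RCD and -0.92 (SE 0.497) in AM132 against RCD. By edgeR's quasi-likelihood test with Benjamini-Hochberg adjustment over 295 tRFs the adjusted p-values were 0.978, 0.258 and 0.197. Without RCD library 3 the log2 fold change was -0.16 for AM608 against RCD and -0.19 for AM132 against RCD. That library also had the neural, muscle and erythroid markers above, and their part in the value was not tested.

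The second 23-nt fragment, tRF-23-79MP9P9MDD, differs from the first by T20C and T23C. It had a lowest, median and highest level of 533, 1016 and 2888 CPM in AM132, 1134, 1898 and 8032 CPM in AM608, and 519, 1997 and 8697 CPM in RCD. The AM132 median was the lowest of the 3, and the ranges overlapped. The log2 fold change was -0.998 (SE 0.488) in AM132 against AM608 and -1.06 (SE 0.491) in AM132 against RCD, with edgeR adjusted p-values of 0.235 and 0.145, so neither passed. AM608 against RCD gave -0.06 (SE 0.480, adjusted p = 0.943). Without AM608 library 1 the value for AM132 against AM608 was -0.47, and without RCD library 3 that for AM132 against RCD was -0.49.

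The most counted ValTAC fragment, tRF-16-R9JP9PD, was lower in both obese groups than in lean liver. Its lowest, median and highest levels were 226, 319 and 960 CPM in AM132 (5 to 27 counts), 292, 670 and 1680 CPM in AM608 (10 to 55 counts) and 739, 1862 and 4771 CPM in RCD (17 to 91 counts). Mean levels were 423 ± 252 CPM in AM132, 750 ± 474 CPM in AM608 and 2192 ± 1346 CPM in RCD (SD, n = 8 each). The medians stood in the order AM132, AM608, RCD, and the ranges of neighbouring groups overlapped, as did those of AM132 and RCD.

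In AM132 against RCD tRF-16-R9JP9PD fell, and the change was -2.38 on the log2 scale (SE 0.406, adjusted p = 3.48e-04 by edgeR). It was the 1 called member of 4 tested in that comparison, in which 15.3% of all 295 tested tRFs were called and 9.15% were lower. Of the 4, 2 had an unadjusted edgeR p under 0.05, this fragment included. The call held when any 1 library of the 2 groups was left out, with values from -2.66 to -2.12, and without RCD library 3 and AM132 library 8 together (-2.39).

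In AM608 against RCD it fell as well, and the change was -1.54 on the log2 scale (SE 0.385, adjusted p = 0.0191 by edgeR). Again 1 of 4 tested members was called, where 4.41% of tested tRFs were called and 2.71% were lower. The directions of the calls over all tRFs depended on the scaling: 5 were higher and 8 lower here, against 11 higher and 8 lower with tRF totals and 48 higher and 2 lower with miRNA totals. In AM132 against RCD 18 higher and 27 lower became 88 higher and 18 lower with miRNA totals, and in AM132 against AM608 12 higher and 3 lower became 10 higher and 1 lower. With miRNA totals tRF-16-R9JP9PD remained lower and called in both comparisons, at -1.15 in AM608 against RCD and -2.05 in AM132 against RCD. The call in AM608 against RCD rested on the set of tRFs tested and on single libraries. The adjusted p was 0.0628 with the 608 tRFs of mean CPM of at least 100, 0.0953 with no filter, where 0.0591% of 8456 tRFs were called, 0.0503 without AM608 library 5 and 0.0604 without RCD library 4, with log2 fold changes of -1.46, -1.26, -1.42 and -1.28.

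In AM132 against AM608 none of the 4 tested members was called by edgeR, DESeq2 or limma, where edgeR called 5.08% of tested tRFs, and 1 of the 4 had an unadjusted edgeR p under 0.05. For tRF-16-R9JP9PD the log2 fold change was -0.83 (SE 0.406, adjusted p = 0.235).

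**Figure D2:**
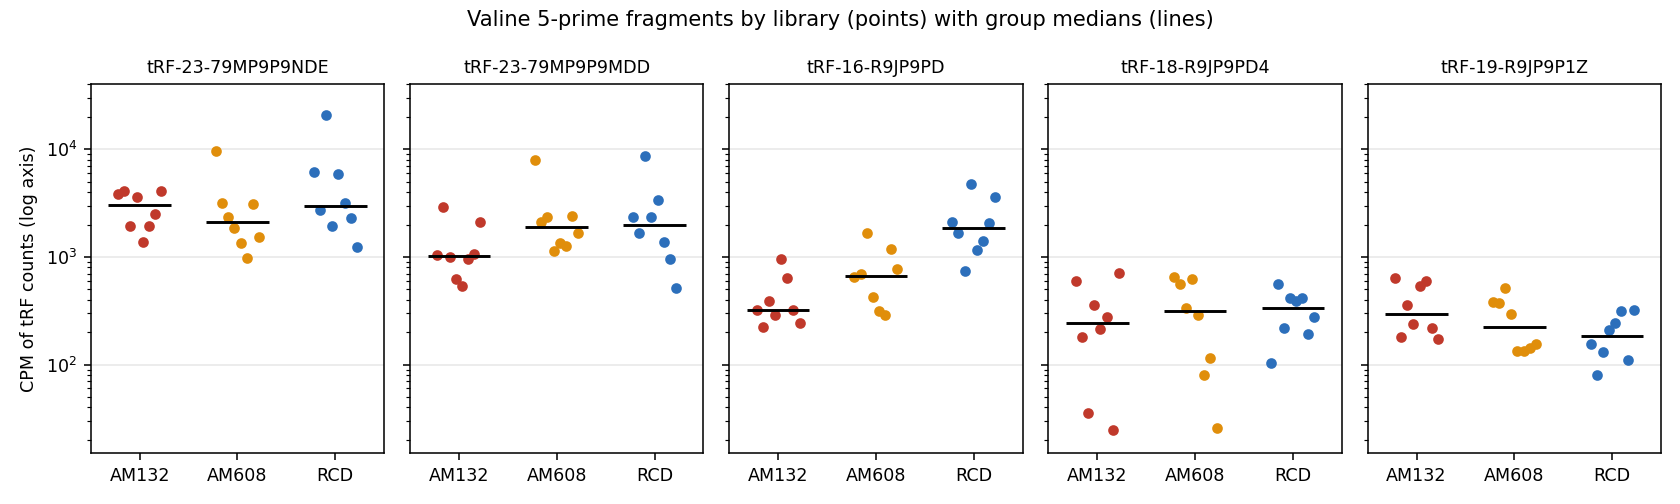
CPM of tested tRF counts (vertical log axis) of 5 valine fragments in each library (points) with group medians (lines), for AM132, AM608 and RCD from left to right. The medians of tRF-16-R9JP9PD are 319 CPM in AM132, 670 CPM in AM608 and 1862 CPM in RCD, with overlapping ranges, and RCD library 3 and AM608 library 1 lie far above the other points for both 23-nt fragments.

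Of the longer ValTAC fragments none was called in any comparison by edgeR. The 18-nt tRF-18-R9JP9PD4 had a lowest, median and highest level of 24.5, 246 and 713 CPM in AM132, 26.01, 313 and 650 CPM in AM608 and 104, 334 and 565 CPM in RCD. Its log2 fold changes were -0.11 (SE 0.532) in AM132 against AM608, 0.03 (SE 0.549) in AM608 against RCD and -0.08 (SE 0.553) in AM132 against RCD, with edgeR adjusted p-values of 0.910, 0.983 and 0.942. The spread within each group exceeded the differences between groups.

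The 19-nt tRF-19-R9JP9P1Z had medians in the opposite order. Its lowest, median and highest levels were 172, 296 and 640 CPM in AM132, 133, 225 and 519 CPM in AM608, and 80.7, 183 and 319 CPM in RCD, from 2 to 17 counts per library. It was below the main filter and was tested with the 608 tRFs of mean CPM of at least 100. The log2 fold change there was 0.42 (SE 0.378, adjusted p = 0.548 by edgeR) in AM132 against AM608, 0.51 (SE 0.399, adjusted p = 0.568) in AM608 against RCD and 0.93 (SE 0.397, adjusted p = 0.122) in AM132 against RCD. No comparison passed, although scaling by miRNA totals gave 1.22 (adjusted p = 0.0194) in AM132 against RCD.

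The 23-nt ValTAC fragment tRF-23-R9JP9PMNDD had medians of 150 CPM in AM132, 150 CPM in AM608 and 235 CPM in RCD, and its highest library was RCD library 8 at 838 CPM. Its log2 fold changes were -0.49 (SE 0.464, adjusted p = 0.582 by edgeR) in AM132 against AM608, -0.57 (SE 0.449, adjusted p = 0.568) in AM608 against RCD and -1.06 (SE 0.465, adjusted p = 0.129) in AM132 against RCD.

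The T16C fragments of code 79MP9P were scarce. The 16-nt tRF-16-79MP9PD, which ends where tRF-16-R9JP9PD ends, had a lowest, median and highest level of 70.9, 179 and 361 CPM in AM132, 42.0, 97.1 and 472 CPM in AM608 and 105, 187 and 437 CPM in RCD. Its log2 fold changes in the wider set were -0.11 (SE 0.455), -0.07 (SE 0.457) and -0.17 (SE 0.464) in the comparisons of AM132 with AM608, AM608 with RCD and AM132 with RCD, with edgeR adjusted p-values of 0.923, 0.965 and 0.844. The 23-nt tRF-23-79MP9PMNDD had medians of 219 CPM in AM132, 69.6 CPM in AM608 and 66.6 CPM in RCD. It had no count in 3 AM608 libraries and 2 RCD libraries, and its highest library was RCD library 3 at 1000.1 CPM. Its log2 fold change was 0.97 (SE 0.763, adjusted p = 0.496 by edgeR) in AM132 against AM608, -0.74 (SE 0.788, adjusted p = 0.699) in AM608 against RCD and 0.23 (SE 0.754, adjusted p = 0.868) in AM132 against RCD, and without RCD library 3 the last was 1.49 (adjusted p = 0.170).

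The remaining members carried few counts. Among them tRF-20-79MP9P9M (114 counts), tRF-24-79MP9P9MF2 (80 counts) and tRF-29-79MP9P9NH52Q (74 counts) had the most. Of the 80 counts of the 24-nt fragment, 31 came from AM132 library 8, at 762 CPM against at most 120 CPM in the other AM132 libraries. The 20-nt fragment had medians of 75.3 CPM in AM132, 178 CPM in AM608 and 192 CPM in RCD, and its change was -1.09 on the log2 scale (SE 0.484, adjusted p = 0.132 by edgeR) in AM132 against RCD. With the wider set, 9 of the 31 members were tested and 1 was called in AM132 against RCD, where 11.5% of the 608 tRFs were called. None of the 9 was called in AM132 against AM608 (8.55% of the 608) or AM608 against RCD (0.822%), with 2 and 1 at an unadjusted edgeR p under 0.05. In AM132 against RCD 5 of the 9 had an unadjusted edgeR p under 0.05, the called fragment included. Of these, tRF-19-R9JP9P1Z had a positive log2 fold change and the others negative ones.

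The median log2 fold change over the 4 members that passed the main filter was -0.47 in AM132 against AM608, -0.47 in AM608 against RCD and -0.99 in AM132 against RCD. Over all 295 tested tRFs it was -0.01, -0.03 and 0.03. Over the 9 members tested in the wider set the median was -0.17 in AM132 against AM608, -0.26 in AM608 against RCD and -0.88 in AM132 against RCD, nearer 0 than over the 4, while over all 608 tRFs of that set it was 0.06, -0.04 and 0.12. The members not tested are not in these medians, and the 3 comparisons share groups.

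Within a library, the ratio of 2 fragments does not depend on the scaling. The log2 ratio of the leading fragments of the 2 codes, tRF-23-79MP9P9NDE over tRF-16-R9JP9PD (with 0.5 added to each count), averaged 2.81 ± 1.26 in AM132, 1.84 ± 1.01 in AM608 and 0.98 ± 2.03 in RCD (SD, n = 8 each). By exact permutation tests over all assignments of the libraries, two-sided and adjusted over 3 comparisons, the difference was 0.96 in AM132 against AM608 (adjusted p = 0.170), 0.86 in AM608 against RCD (adjusted p = 0.303) and 1.83 in AM132 against RCD (adjusted p = 0.150). Without RCD library 3 the last was 2.37 (exact permutation test, adjusted p = 0.0168), and without AM132 library 5 it was 2.15 (adjusted p = 0.0394). Without AM132 library 5 the difference in AM132 against AM608 was 1.29 (adjusted p = 0.0394).

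A further 3 ratios were chosen after the levels had been seen, and their exact permutation p-values, two-sided and adjusted over the 9 comparisons, describe these libraries and are not independent of that choice. The first compares lengths within ValTAC. The log2 ratio of tRF-19-R9JP9P1Z over tRF-16-R9JP9PD had a lowest, median and highest value of -0.83, -0.27 and 0.96 in AM132, -2.92, -1.11 and -0.49 in AM608 and -4.35, -3.49 and -2.08 in RCD. AM132 libraries lay above all RCD libraries, while AM608 overlapped both. The difference in means was 1.18 in AM132 against AM608 (adjusted p = 0.00373), 1.86 in AM608 against RCD (adjusted p = 0.00455) and 3.05 in AM132 against RCD (adjusted p = 0.0014). Leaving out each library in turn gave 0.97 to 1.31, 1.71 to 2.08 and 2.88 to 3.21, with adjusted p-values of at most 0.00839.

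The same pattern can be read as shares of the R9JP9P counts. The 16-nt fragment held 15.6 to 52% of them in AM132 libraries (median 32.9%), 27.0 to 67.2% in AM608 libraries (median 42.2%) and 52.2 to 82.7% in RCD libraries (median 63.4%). The 19-nt fragment held 10.9 to 38.5% in AM132 libraries (median 30.2%), 8.20 to 21.1% in AM608 libraries (median 17.3%) and 3.03 to 12% in RCD libraries (median 5.66%). AM132 libraries had 17 to 64 R9JP9P counts, AM608 libraries 24 to 97 and RCD libraries 30 to 139, so single shares are imprecise. The ratio and the shares both contain the called tRF-16-R9JP9PD, and the 19-nt share rises when 16-nt counts fall. They are therefore not separate from that fragment's own change, -2.38 on the log2 scale in AM132 against RCD. The 19-nt fragment alone changed by 0.93 there in the wider set and was not called (adjusted p = 0.122 by edgeR).

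For comparison, over all tRFs fragments of 16 nt held a median of 12.8% of tRF counts in AM132, 14.3% in AM608 and 13.6% in RCD, and fragments of 19 nt held 6.40% in AM132, 5.57% in AM608 and 5.29% in RCD. Fragments of 18 nt held a median of 32.4% in AM132, 34.0% in AM608 and 27.6% in RCD, and fragments of 23 nt held 3.75% in AM132, 4.05% in AM608 and 4.73% in RCD.

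**Figure D3:**
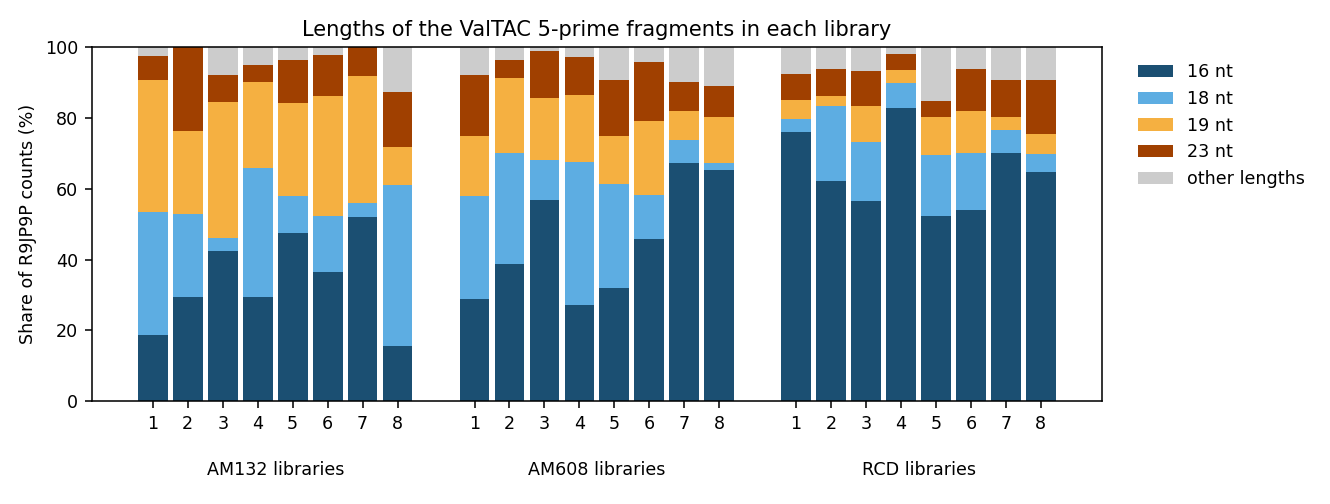
Share of R9JP9P counts (vertical axis, percent) by fragment length, as stacked bars with 1 bar per library, for the AM132, AM608 and RCD libraries from left to right. The median share of the 16-nt fragment is 32.9% in AM132, 42.2% in AM608 and 63.4% in RCD, and that of the 19-nt fragment is 30.2% in AM132, 17.3% in AM608 and 5.66% in RCD.

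The second ratio compares the 2 leading forms of code 79MP9P at the same length. The log2 ratio of tRF-23-79MP9P9NDE over tRF-23-79MP9P9MDD had a lowest, median and highest value of 0.50, 1.13 and 2.52 in AM132, -0.37, 0.13 and 0.69 in AM608, and -0.28, 1.22 and 1.38 in RCD. The first fragment was the more counted one in every AM132 library and in every RCD library except library 4, while AM608 libraries lay around equal counts. The difference in means was 1.12 in AM132 against AM608 (exact permutation test, adjusted p = 0.0021), -0.77 in AM608 against RCD (adjusted p = 0.0121) and 0.35 in AM132 against RCD (adjusted p = 0.268). Leaving out each library gave 0.94 to 1.23 for AM132 against AM608 and -0.94 to -0.69 for AM608 against RCD, with adjusted p-values of at most 0.0238. The libraries with the highest levels, AM608 library 1 and RCD library 3, did not set these differences: without AM608 library 1 the value for AM132 against AM608 was 1.13, and without RCD library 3 that for AM608 against RCD was -0.72.

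**Figure D4:**
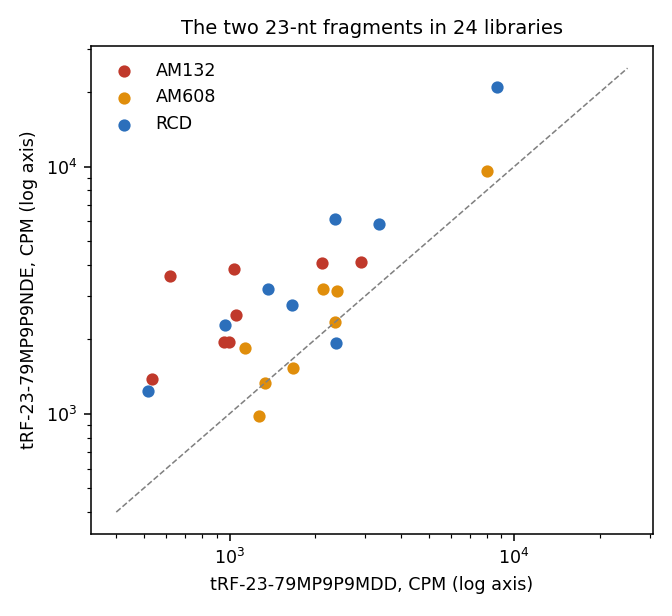
CPM of tRF-23-79MP9P9NDE (vertical log axis) against CPM of tRF-23-79MP9P9MDD (horizontal log axis) in the 24 libraries, coloured by group, with a dashed line at equal levels. All 8 AM132 libraries and all RCD libraries except library 4 lie above the line, and AM608 libraries lie on both sides of it.

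The third ratio sets the 16-nt fragments of the 2 codes against each other. The log2 ratio of tRF-16-R9JP9PD over tRF-16-79MP9PD averaged 1.13 ± 1.29 in AM132, 2.08 ± 0.95 in AM608 and 3.12 ± 1.01 in RCD (SD, n = 8 each). The difference was -0.95 in AM132 against AM608 (exact permutation test, adjusted p = 0.131), -1.04 in AM608 against RCD (adjusted p = 0.0699) and -1.99 in AM132 against RCD (adjusted p = 0.0109). The ranges of AM132 and RCD overlapped, at -0.63 to 2.97 and 1.37 to 4.35. Without RCD library 3 the difference in AM608 against RCD was -1.20 (adjusted p = 0.0430). This ratio also contains the called tRF-16-R9JP9PD and is not separate from that fragment's own change. For AM132 against RCD that change was -2.38 on the log2 scale, while tRF-16-79MP9PD changed by -0.17 in the wider set. Every group had libraries with 3 counts or less of tRF-16-79MP9PD, a level that cannot be told from 0.

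**Figure D5:**
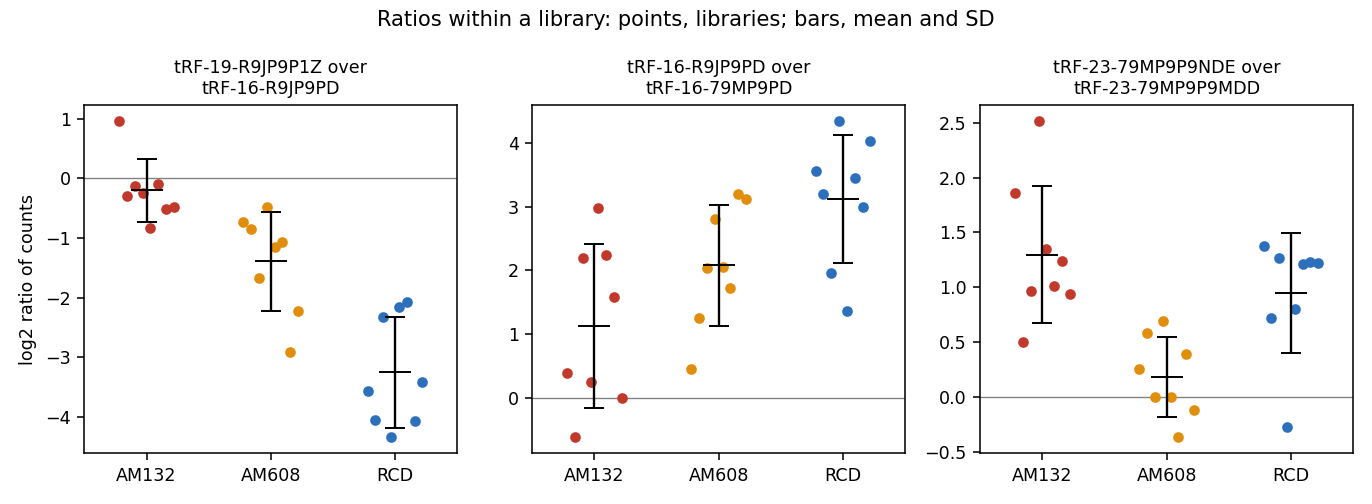
Within-library log2 ratios of pairs of valine fragments (vertical axes) in each library (points) for AM132, AM608 and RCD from left to right, with the group mean and SD as bars. The 19-nt over 16-nt ratio of ValTAC fragments has its lowest AM132 value at -0.83 and its highest RCD value at -2.08, and the other ratios overlap between groups.

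The fragments did not vary as one set across libraries. Over the 24 libraries the log2 CPM of tRF-23-79MP9P9NDE had a Spearman correlation of 0.61 with tRF-23-79MP9P9MDD, 0.79 with tRF-23-79MP9PMNDD and 0.61 with tRF-16-79MP9PD, all of code 79MP9P. With tRF-16-R9JP9PD it was -0.10. Within ValTAC, tRF-16-R9JP9PD had a correlation of 0.55 with tRF-23-R9JP9PMNDD, 0.00 with tRF-18-R9JP9PD4 and -0.05 with tRF-19-R9JP9P1Z. These values include differences between the groups. With the group means of log2 levels taken off, its Pearson correlation was 0.492 with tRF-23-R9JP9PMNDD, -0.035 with tRF-18-R9JP9PD4 and 0.485 with tRF-19-R9JP9P1Z. With tRF-23-79MP9P9NDE it was then -0.37. These points share libraries and scaling, and fragments with few counts have wide counting error.

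The tested tRFs outside the members most like tRF-16-R9JP9PD by Spearman correlation were tRF-20-RPM830MM (0.92), tRF-26-86V8WPMN1EE (0.90) and tRF-27-86V8WPMN1E5 (0.90). Those most like tRF-23-79MP9P9NDE were tRF-30-QKF1R3WE8RO8 (0.69), tRF-30-L85DMKYUYRLH (0.65) and tRF-22-PS5P4PW3H (0.62), the last a 5′ fragment of LysTTT. Of the tRFs named here, only tRF-22-PS5P4PW3H is in the lists of other tRNAs set out below. The code 86V8WP of tRF-26-86V8WPMN1EE and tRF-27-86V8WPMN1E5 differs by a single letter from 86J8WP, the code of the GluTTC list. Their absence from that list does not show that they come from another tRNA.

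Other pieces of valine tRNAs were set beside these 5′ fragments. The opposite strand of the acceptor stem gives 3′ fragments that end in CCA, the tail to which the amino acid is joined. For the stem of code 79MP9P, 14 tRFs with 17372 counts (2.09% of all tRF counts) ended this way. Of these, 4 passed the main filter and none was called in any of the 3 comparisons by edgeR, or had an unadjusted p under 0.05 there, with medians of -0.09 in AM132 against AM608, 0.07 in AM608 against RCD and -0.10 in AM132 against RCD. For the stem of code R9JP9P with A before CCA, 8 tRFs had 1736 counts, and the 1 tested, tRF-22-W0K672052, had log2 fold changes of 0.08 (adjusted p = 0.855) in AM132 against AM608, -0.34 (adjusted p = 0.358) in AM608 against RCD and -0.26 (adjusted p = 0.462) in AM132 against RCD. A further 12 tRFs with T before CCA and 19202 counts share that stem and cannot be assigned to valine. At 30 nt, the length just outside the rule, 3 tRFs with these codes had 188 counts. The most counted, tRF-30-79MP9P9MH57S, had 142 counts, while the 29-nt members, just inside it, had 74, 9 and 8. Inside the parts of the tRNAs that members cover lay 32 tRFs with 481 counts for 79MP9P and 18 with 80 counts for R9JP9P only. Fragments found in both codes were counted under 79MP9P, among them tRF-16-V4VH7QD with 186 counts. The split therefore does not compare the codes.

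Among 5′ fragments under 30 nt of other tRNAs, picked by code, LysCTT had 17 tRFs (6 tested), LysTTT 11 (6 tested), GluTTC 12 (11 tested) and AspGTC 16 (5 tested). The codes chosen for GluCTC, for GlyGCC or GlyCCC, and for HisGTG matched no tRF of that length. Each list holds a single code, for GluTTC 86J8WP, so fragments of the same tRNA with another code are not included. In AM132 against RCD, where tRF-16-R9JP9PD fell, 1 LysCTT, 7 GluTTC and 2 AspGTC fragments fell and no tested LysTTT fragment was called (1 of 6 at an unadjusted edgeR p under 0.05), where 15.3% of all tested tRFs were called. In the wider set, where 11.5% were called, no LysCTT, 5 GluTTC and 2 AspGTC fragments fell and 1 LysTTT fragment rose. In the main set the medians were -0.67 for LysCTT, -0.95 for GluTTC, -1.16 for AspGTC and 0.26 for LysTTT. In AM608 against RCD, where 4.41% of all tested tRFs were called, 1 of 6 LysTTT fragments fell. None of the LysCTT, GluTTC and AspGTC fragments was called there, although 2, 2 and 3 of them had an unadjusted edgeR p under 0.05. The medians were -0.60 for LysTTT, -0.59 for LysCTT, -0.41 for GluTTC and -0.78 for AspGTC. In AM132 against AM608, where 5.08% of all tested tRFs were called, 2 LysTTT fragments rose. No LysCTT, GluTTC or AspGTC fragment was called there, with 1 of 6, 6 of 11 and 1 of 5 at an unadjusted edgeR p under 0.05. Differences between the families were not tested.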

How the data were processed

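Values are raw counts per tRF and per miRNA as deposited by the authors, from NEBNext small RNA libraries of 300 ng liver RNA run on an Illumina NextSeq, per the labels' protocols. The submitters' processing notes name FastQC. Which aligner, genome build and rule of read assignment were used is not given in the sources used here. The kit ligates 5′ phosphate and 3′ hydroxyl ends, and the labels mention no molecular identifiers, so errors cover counting and library spread only. Names were decoded to sequences, and all 8456 encoded back. Counts of all 24 libraries were fitted together in edgeR 4.0.16 (R 4.3.3; robust quasi-likelihood, TMM, filterByExpr with a minimum of 10 counts, group only, threshold 0.05). The SE is the absolute log2 fold change over the square root of F. DESeq2 1.42.0 and limma 3.58.1 were alternatives, and the fit was tested on simulated data. Named are the 4 most counted members of each code; others were named after their values were seen. Members and lists were chosen with earlier results of these data known. Libraries of a group all differed by more than sampling noise: over 84 pairs, chi-square divided by its degrees of freedom was at least 1.88.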

Additional observations from a re-analysis of the deposited data

Results flagged for a closer look

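Of 36 groups of 8 libraries looked at, 9 had a highest or lowest library whose gap to its neighbour exceeded Dixon's 95% limit, which chance passes in about 1 group in 20. AM608 library 1 was far above its group for tRF-23-79MP9P9NDE (9567 CPM) and tRF-23-79MP9P9MDD (8032 CPM). RCD library 3 was far above for tRF-23-79MP9P9NDE (20916 CPM), tRF-23-79MP9P9MDD (8697 CPM) and tRF-23-79MP9PMNDD (1000.1 CPM). RCD library 5 was highest for tRF-16-79MP9PD (437 CPM) and RCD library 8 for tRF-23-R9JP9PMNDD (838 CPM). AM132 library 1 had the highest log2 ratio of tRF-19-R9JP9P1Z over tRF-16-R9JP9PD in its group (0.96). RCD library 4 had the lowest log2 ratio of tRF-23-79MP9P9NDE over tRF-23-79MP9P9MDD (-0.28). In RCD library 3 the summed neural, muscle and erythroid miRNAs were also the highest of all libraries and the biliary ones the lowest. The part of these miRNAs in the values above was not tested.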

How the results depend on the processing

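Of 888 values recomputed under alternatives, 809 kept their direction and side of the threshold, 58 changed sign, 6 lost a call, 11 gained one and 4 counts moved. The count of members called in AM608 against RCD was 0 with no filter and 0 with mean CPM of at least 100, and ranged from 0 to 1 when libraries were left out; the counts in the other comparisons did not move. For the leading ratio, AM132 against RCD reached 2.20 (exact permutation test, adjusted p = 0.0350) without RCD library 3 and AM132 library 8, and leaving out each library gave 1.47 to 2.37, and 0.77 to 1.29 in AM132 against AM608.

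No result that changed sign was called on either side, and the cause was not tested. For tRF-23-79MP9P9MDD in AM608 against RCD the log2 fold change was 0.066 with tRF totals, 0.44 with miRNA totals, 0.32 with no filter, 0.031 with mean CPM of at least 100, 0.11 with limma and 0.52 without RCD library 3 and AM132 library 8. For tRF-23-79MP9P9NDE in AM132 against AM608 it was 0.041 with miRNA totals, 0.25 with limma and 0.29 with the replicate block. For tRF-18-R9JP9PD4 it was 0.010 in AM132 against AM608 and 0.37 in AM132 against RCD with miRNA totals, and in AM608 against RCD -0.46 with limma, -0.11 with the replicate block and -0.081 without the 2 libraries. For tRF-16-79MP9PD it was 0.15 with no filter and 0.25 with miRNA totals in AM608 against RCD, 0.21 with miRNA totals in AM132 against RCD, and 0.042 with the replicate block and 0.23 with limma in AM132 against AM608. For tRF-23-79MP9PMNDD in AM608 against RCD it was 0.59 without the 2 libraries.

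Leaving out each library gave, for tRF-16-79MP9PD, -0.27 to 0.25 in AM132 against AM608, -0.45 to 0.12 in AM608 against RCD and -0.34 to 0.016 in AM132 against RCD. For tRF-18-R9JP9PD4 it gave -0.42 to 0.16, -0.19 to 0.22 and -0.41 to 0.15. For tRF-23-79MP9P9MDD and tRF-23-79MP9PMNDD in AM608 against RCD it gave -0.59 to 0.51 and -1.17 to 0.51, and for tRF-23-79MP9P9NDE in AM132 against AM608 -0.17 to 0.51.

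Whether the replicate numbers pair the libraries was not settled. Same-numbered libraries correlated at -0.154 to 0.492, -0.120 to 0.335 and -0.302 to 0.476 in the 3 comparisons. Of the 8 pairs, 4, 5 and 4 were over 0.1, and 2, 1 and 3 of 8 libraries correlated best with their own number. With the replicate block the counts of members called stayed at 0, 1 and 1. For the ratios the block was an exact sign-flip test over the 8 same-numbered pairs. By it the 16-nt ratio in AM132 against RCD had an adjusted p of 0.0904 and the 23-nt ratio in AM608 against RCD one of 0.0844. Scaling by miRNA totals moved the median of all tested tRFs by 0.39 in AM608 against RCD and 0.43 in AM132 against RCD, and by tRF totals by 0.11 in AM608 against RCD. A level of 3 counts or less, up to 157 CPM, cannot be told from 0.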
